A study of Bos taurus with 6 samples.

Results

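bta-miR-143, bta-miR-145, bta-miR-221 and bta-miR-222 are 4 known Bos taurus miRNAs associated with blood vessels. They were taken by name from the deposited table of serum extracellular vesicle (EV) miRNAs, where all 4 were present among 706 listed miRNAs, 359 of them known. EVs are membrane-enclosed particles that cells release into body fluids. Serum of 6 female Holstein cows in mid lactation was used, with 1 small RNA library per cow. The 3 cows of the control group and the 3 of the tested group each ate a total mixed ration (TMR) for 30 days. In the ration of the tested group, whole cotton seed and soybean hull took the place of some alfalfa hay and some corn silage. The comparison asks whether this change of diet altered the EV-miRNAs. Serum EVs come from many organs, so no cell type of origin is given by the sample, and fewer EVs from a source cannot be told apart from less of a miRNA in each EV.

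miRNAs are short RNAs that pair with messenger RNAs, mainly through the seed at bases 2 to 8, and lower the output of those messengers. miR-143 and miR-145 are made from a shared primary transcript. They are known as the leading miRNAs of smooth muscle, where they help to keep the contractile state of the vessel wall. miR-221 and miR-222 are also made from a shared primary transcript and share their targets, among them the receptor KIT and a cell cycle inhibitor. They are known to favour the growth of smooth muscle cells and to restrain that of endothelial cells, and they are also made by blood cell progenitors, where their level falls as red blood cells mature.

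The listed sequences are shown because the pairs differ in whether their members share a seed. They are given 5′ to 3′ as DNA letters, as in the deposited table, with bases 2 to 8 in capitals.
bta-miR-143: tGAGATGAagcactgtagctcg
bta-miR-145: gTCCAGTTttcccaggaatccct
bta-miR-221: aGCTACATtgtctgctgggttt
bta-miR-222: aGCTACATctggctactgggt
The seeds of bta-miR-143 and bta-miR-145 differed from each other, and no other listed miRNA had either of them. bta-miR-221 and bta-miR-222 had the same seed, and no other miRNA among the 706 listed had it. The first 8 bases of bta-miR-221 and bta-miR-222 were identical, and this was their longest shared stretch. Their later bases differ, so a full-length read is assigned to a single member. The longest stretch shared with any listed miRNA outside the 4 was 9 bases, for bta-miR-143 and for bta-miR-221, and 0 listed sequences lay wholly inside a member or held it. In the RefSeq gene table of ARS-UCD2.0, a later assembly than that of the deposited files, all 4 matched a gene name. MIR143 and MIR145 stood next to each other there with 0 genes starting between them, inside a single long non-coding RNA gene (LOC132345768). The same held for MIR221 and MIR222 (LOC132344329).

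Levels are counts-per-million known miRNA counts of the library (CPM), which rest on 1226928 to 2088249 known counts per cow. Each mature miRNA is read as a whole molecule, so levels are compared between miRNAs without scaling by length. How evenly adapter ligation and amplification recovered different sequences was not measured. Ratios between different miRNAs are therefore ratios of counts and may differ from ratios of molecules. The library of tested cow 1 stood apart from the rest. It had the fewest known counts and the highest summed level of 3 red blood cell miRNAs (bta-miR-451, bta-miR-144 and bta-miR-486), 59608 CPM against 8621 to 28434 CPM in the other cows. The sums of the other marker lists ran from 12.6 to 212 CPM for platelets (3 miRNAs), from 161 to 450 CPM for white blood cells (4 of 5 listed), from 1068 to 2024 CPM for liver (3), from 1.3 to 48.1 CPM for striated muscle (3) and from 74400 to 93931 CPM for epithelium (6 of 7). No listed marker was at 0 in every cow. The smooth muscle list held bta-miR-143 and bta-miR-145 only, and its sum ran from 260 to 638 CPM.

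bta-miR-143 was the most abundant of the 4 and the only one above 200 CPM in every cow. Control cows 1, 2 and 3 had 567, 276 and 253 CPM, and tested cows 1, 2 and 3 had 506, 632 and 610 CPM. Control cow 1 stood among the tested cows, and the other 2 control cows were below all tested cows, so the groups overlapped. On the other deposited scale, reads-per-million clean reads (RPM), tested cow 1 was instead the lowest, at 43.0 RPM against 43.3 to 61.0 RPM in the control cows. Its rank among known miRNAs was between 61 and 81. The spread within the tested group was small, with a coefficient of variation of 11.5%, against 47.9% in the control group. In both groups it exceeded the 3.18% to 3.97% that counting alone gives.

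bta-miR-145, the neighbour of bta-miR-143, was read only a few times per cow. The control cows had 4, 3 and 15 counts, or 2.60, 1.49 and 7.54 CPM, and the tested cows had 18, 12 and 9 counts, or 14.7, 6.39 and 4.31 CPM. Tested cow 1 was highest and control cow 2 lowest, and control cow 3 was above 2 of the tested cows. The 95% counting interval ran from 0.308 to 4.36 CPM in control cow 2 and from 8.69 to 23.2 CPM in tested cow 1. These intervals are exact binomial and cover counting error only, since PCR copies of a read are not independent molecules.

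bta-miR-221 varied more between cows than any other of the 4. The control cows had 175, 44.8 and 19.1 CPM, and the tested cows had 57.1, 34.6 and 3.83 CPM. Control cow 1 was highest and tested cow 3, with 8 counts, was lowest, a 45.7-fold range that falls within and across the groups. Its rank among known miRNAs moved from 94 in control cow 1 to 205 in tested cow 3. bta-miR-143, by contrast, spanned 2.50-fold over the same 6 cows.

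bta-miR-222, which has the seed of bta-miR-221, was as sparse as bta-miR-145. The control cows had 15, 9 and 9 counts, or 9.76, 4.48 and 4.52 CPM, and the tested cows had 26, 6 and 2 counts, or 21.2, 3.19 and 0.958 CPM. The tested group thus held both the highest and the lowest cow, and all 3 control cows lay between tested cow 1 and tested cow 2. In tested cow 3 the counting interval reached from 0.116 to 3.46 CPM.

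**Figure D1:**
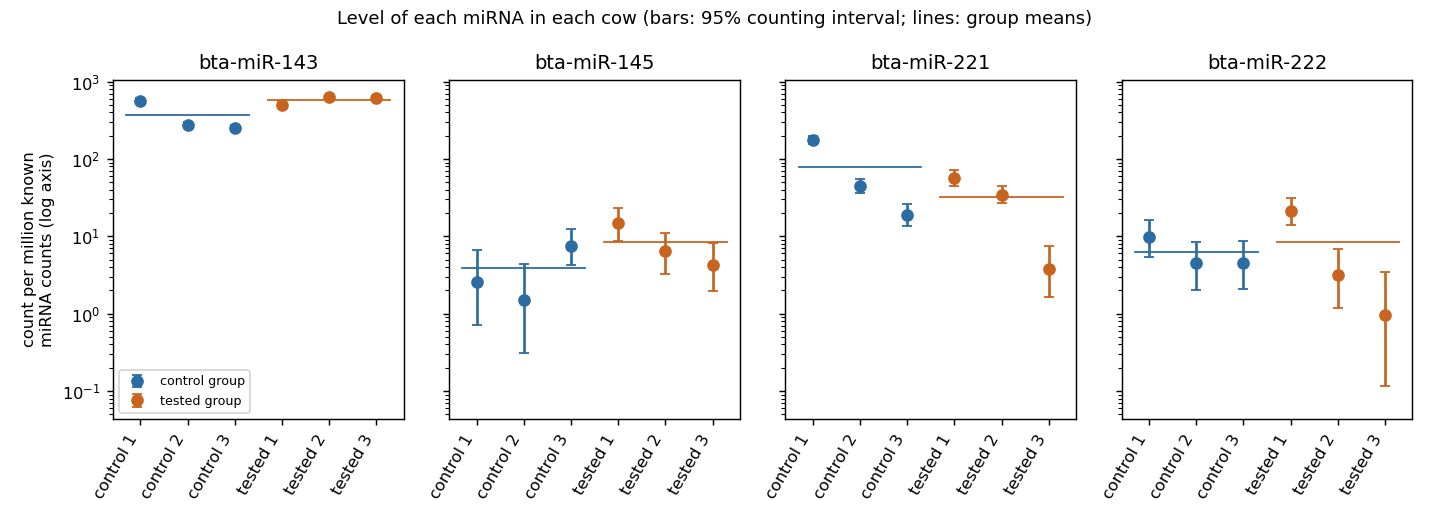
Level of each miRNA in each cow as counts-per-million known miRNA counts (vertical log axis), with the cows on the horizontal axis, control in blue and tested in orange. Points are single cows, vertical bars are 95% exact counting intervals and horizontal lines are group means. bta-miR-143 lies between 253 and 632 CPM, bta-miR-221 between 3.83 and 175 CPM, and bta-miR-145 and bta-miR-222 have no cow above 21.2 CPM.

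Within each cow, bta-miR-143 was higher than bta-miR-221, and bta-miR-221 was higher than bta-miR-222, each in 6 of 6 cows. The mean log2 ratio was 3.78 ± 1.94 (SD, n = 6) for bta-miR-143 over bta-miR-221 and 2.74 ± 1.05 (SD, n = 6) for bta-miR-221 over bta-miR-222. These ratios are given as a description with no test, since the order itself was read from the same levels. The lowest neighbours in the order, bta-miR-222 and bta-miR-145, did not differ beyond their spread. Their mean log2 ratio was 0.02 ± 1.59 (SD, n = 6), with bta-miR-222 higher in 3 of 6 cows.

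Each pair is made from a shared transcript, and the counts of its members were unequal. Whether the members differed in level or in recovery by the library preparation was not tested. bta-miR-143 made up between 97.1% and 99.5% of the summed counts of the miR-143/miR-145 pair. The ratio of bta-miR-143 to bta-miR-145 was 218, 185 and 33.5 for the control cows, against 34.5, 98.9 and 141 for the tested cows. Control cow 3 and tested cow 1 were low and the other 4 cows high. The counting intervals of control cow 3, from 20.1 to 60.4, and of control cow 1, from 84.7 to 801, did not overlap. In the miR-221/miR-222 pair, bta-miR-221 made up between 72.9% and 94.7% of the counts. The ratio of bta-miR-221 to bta-miR-222 was 17.9, 10.0 and 4.22 for the control cows, against 2.69, 10.8 and 4.0 for the tested cows. It was lowest in tested cow 1, with a counting interval of 1.69 to 4.40, and highest in control cow 1, with an interval of 10.7 to 32.5. In tested cow 3, with 2 counts of bta-miR-222, the interval was 0.798 to 38.7.

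The miR-143/miR-145 pair had more counts than the miR-221/miR-222 pair in every cow, by a larger factor in some cows than in others. The ratio of the summed counts was 3.08, 5.63 and 11 for the control cows, against 6.66, 16.9 and 128 for the tested cows. Tested cow 3 was far above the rest, and its interval of 69.5 to 268 did not reach that of any other cow. Tested cow 1 lay below control cow 3, so the groups overlapped. On the log2 scale the control group had a mean of 2.53 ± 0.92 (SD, n = 3) and the tested group one of 4.60 ± 2.18 (SD, n = 3), which differ by 2.08 (exact permutation test, p = 0.2, adjusted over 3 ratios p = 0.6). This ratio compares the diet differences of the pairs and does not depend on the library total. The difference of 2.08 was larger than the SD of the control group and smaller than that of the tested group. Without tested cow 3 it was 0.88 (exact permutation test, p = 0.4). With 3 cows in each group, this exact test cannot give a p below 0.1. Within the pairs, the log2 ratio of bta-miR-143 over bta-miR-145 had control and tested means of 6.79 ± 1.49 and 6.29 ± 1.06 (SD, n = 3 each), with p = 0.6 by the exact permutation test. For bta-miR-221 over bta-miR-222 the means were 3.19 ± 1.05 and 2.29 ± 1.03 (SD, n = 3 each), with p = 0.4 by the exact permutation test. The groups overlapped in all 3 ratios.

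**Figure D2:**
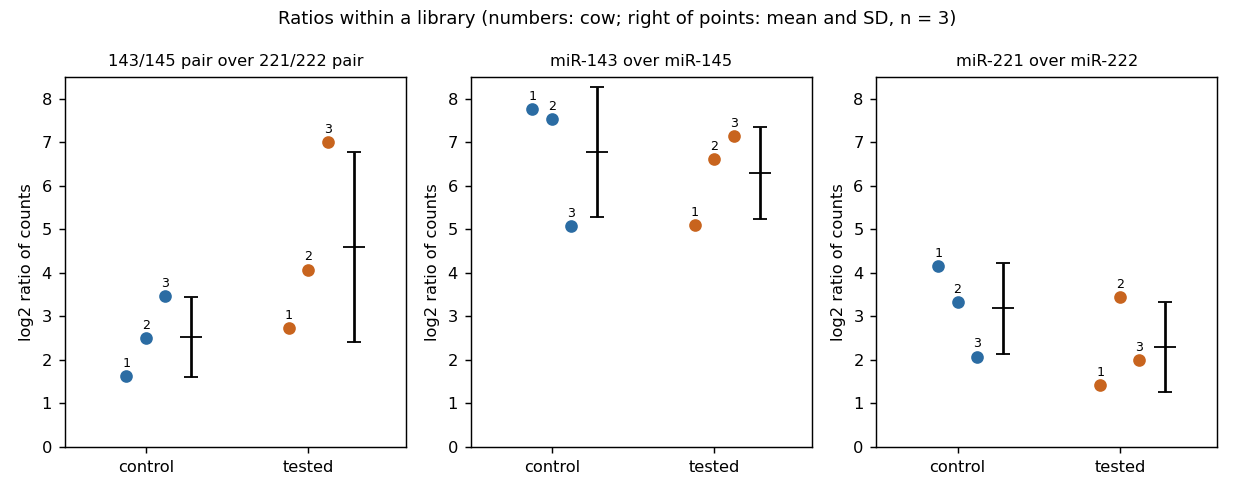
Ratios within a library on the log2 scale (vertical axis) for the miR-143/miR-145 pair over the miR-221/miR-222 pair, bta-miR-143 over bta-miR-145 and bta-miR-221 over bta-miR-222, by group. Points are cows, marked with their number, and the bar to the right of the points is the mean with its SD (n = 3). The first panel shows tested cow 3 at 7.0, above the next cow at 4.08.

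No member passed the test between the diets. By share of known miRNA counts, the control and tested means of bta-miR-143 were 365 ± 175 and 582 ± 67.0 CPM (SD, n = 3 each), with p = 0.2 by the exact permutation test. Those of bta-miR-145 were 3.88 ± 3.22 and 8.46 ± 5.48 CPM (SD, n = 3 each), with p = 0.3 by the same exact test. Those of bta-miR-221 were 79.6 ± 83.6 and 31.8 ± 26.7 CPM (SD, n = 3 each), with an exact p of 0.5. For bta-miR-222 the means were 6.25 ± 3.04 and 8.45 ± 11.1 CPM (SD, n = 3 each), with an exact p of 1. Adjusted over the 4 members, these values were 0.6 or higher. The groups overlapped for all 4, while 11.2% of the 623 miRNAs tested had groups that did not overlap, 8.83% higher and 2.41% lower in the tested group.

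The same comparison was made with the quasi-likelihood test of edgeR over the 623 miRNAs with a total of 10 or more counts, with an unadjusted p below 0.05 and an absolute log2 fold change above 1 as the threshold. It passed 0 of the 4 members, against 3.21% of all miRNAs tested, 2.09% higher and 1.12% lower in the tested group, and 0.962% of the known miRNAs. Of the 4, 0 had an unadjusted p under 0.05, against 4.65% of all, and 0 had an adjusted p under 0.05, against 0.161% of all. DESeq2 and limma also passed 0 of the 4, against 4.17% and 5.46% of all. Positive values mean a higher level in the tested group. The log2 fold change of bta-miR-143 by edgeR was 0.64 (standard error 0.407, 95% interval -0.24 to 1.52, adjusted p = 0.544). For bta-miR-221 it was -1.29 (standard error 1.12, interval -3.71 to 1.14, adjusted p = 0.696 by edgeR). For bta-miR-145 it was 1.01 (standard error 2.17, interval -3.67 to 5.70) and for bta-miR-222 it was 0.40 (standard error 2.14, interval -4.23 to 5.03), with adjusted p of 0.947 and 0.987 by edgeR. The intervals of the sparse members bta-miR-145 and bta-miR-222 hold changes of many-fold in either direction, so a difference was not detectable with these cows and counts. Single cows carried some of these values. Without control cow 1, the log2 fold change was 1.04 for bta-miR-143 (unadjusted p of 0.0510 by edgeR, adjusted p = 0.618) and -0.05 for bta-miR-221. Without tested cow 1, that of bta-miR-222 was -1.55 and that of bta-miR-145 was 0.37, and without control cow 3 that of bta-miR-145 was 2.02.

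The other vascular miRNAs were taken from a list of 33, of which 31 were in the table and 27 had enough counts to be tested. The test passed 1 of the 27 higher in the tested group and 0 lower. This is a single miRNA, or 3.70%, where 3.21% of all miRNAs and 0.962% of the known miRNAs passed. Of the 27, 18 had a positive and 9 a negative log2 fold change. The median of the 27 was 0.19, against 0.07 over all 623 miRNAs and -0.01 over the 312 known ones. The share with a positive value was 66.7% in the list, 53.5% over all and 49.4% over the known miRNAs. For bta-miR-130a, all 37 counts were from tested cow 1. Its lower bound against 3 counts over the control group was 13.1-fold. That is still above the median of the list, so using the bound could not change the median. That miRNA had the highest fitted fold change of the list. The lowest was that of bta-miR-210, a miRNA induced by low oxygen, with 42 counts over the control cows, 40 of them in control cow 1, and 1 count over the tested cows. Without control cow 1 the counts were 2 against 1. Its control mean was 9.01 ± 14.7 CPM (SD, n = 3) and it was not called (unadjusted p of 0.128 by edgeR). The single call was bta-miR-199a-3p, a miRNA of mesenchymal cells, with 11.1, 22.4 and 6.03 CPM for the control cows and 183, 19.2 and 58.4 CPM for the tested cows. By edgeR it was 2.66 ± 1.10 (standard error) higher on the log2 scale, with an adjusted p of 0.448. Its groups overlapped, and leaving out control cow 1, control cow 3 or tested cow 1 ended the call. By name, bta-miR-199a-5p is the other arm of its hairpin, and it was not called. Its log2 fold change was 0.63 (standard error 2.10, unadjusted p of 0.769 by edgeR). The smallest unadjusted p in the list was that of bta-miR-92a, a member of the cluster around miR-17 (0.0287 by edgeR, log2 fold change of -0.47). In size, the absolute log2 fold changes of the 4 members exceeded those of 40.6% (bta-miR-143), 49.9% (bta-miR-145), 54.1% (bta-miR-221) and 30.2% (bta-miR-222) of the 623 miRNAs.

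**Figure D3:**
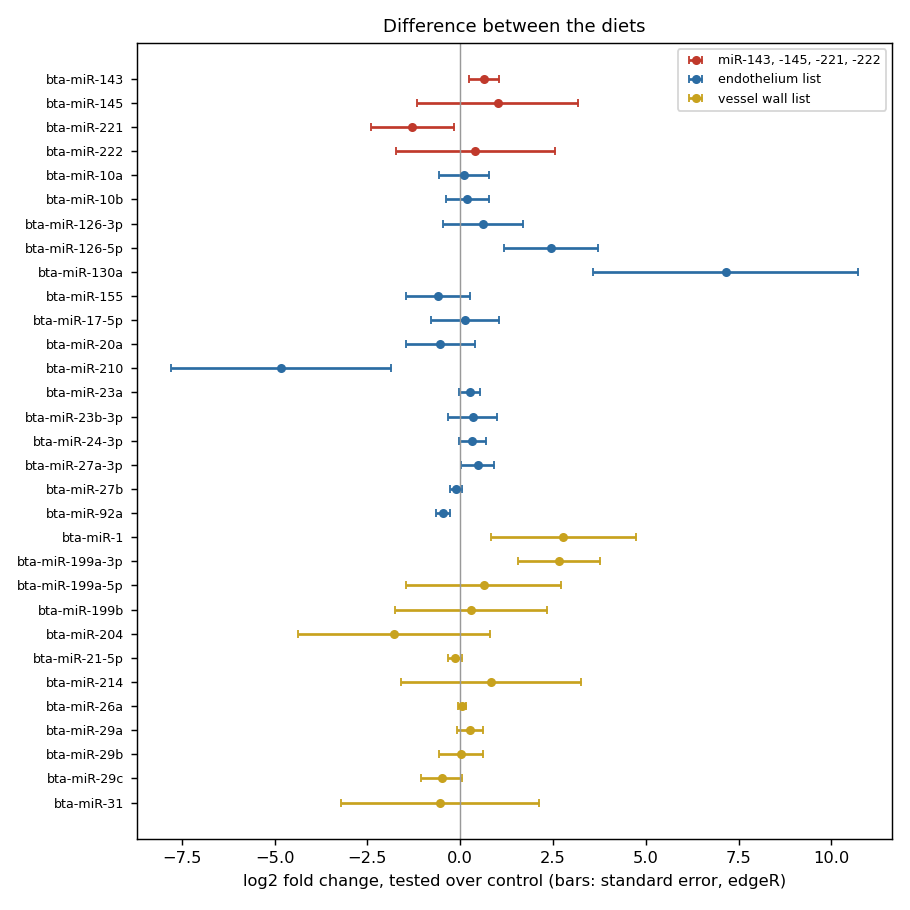
Log2 fold change of tested over control from edgeR (horizontal axis) for bta-miR-143, bta-miR-145, bta-miR-221 and bta-miR-222 in red, the 15 tested miRNAs of the endothelium list in blue and the 12 of the vessel wall list in yellow. Bars are standard errors. The 4 red points lie between -1.29 and 1.01, and the widest bars belong to miRNAs with few counts, such as bta-miR-130a with 37 counts in a single cow.

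How alike a pair of miRNAs varied over the cows was measured as the SD over the 6 libraries of their log2 ratio, after 0.5 was added to each count. The SD is small where both rose and fell together, but also where neither varied much, and it does not depend on the library total. The log2 level itself had an SD over the 6 cows of 0.593 for bta-miR-143, 1.17 for bta-miR-145, 1.84 for bta-miR-221 and 1.51 for bta-miR-222. An SD to another miRNA near these values is what a miRNA of constant level would give. It was taken against known miRNAs with a mean of at least 100 counts per library, 126 of them, or 125 for bta-miR-143, which is itself in that pool. The 3 named for each member are the closest of that pool and are a description without a test.

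The SD of bta-miR-143 to its neighbour bta-miR-145 was 1.13, and 90.4% of the 125 miRNAs were closer to it than bta-miR-145 was. That share was 57.1% in a pool of miRNAs with a mean of at least 10 counts. Seen from bta-miR-145, 39.2% of the 125 were closer than bta-miR-143 was. Counting error alone would give an SD of 0.561 for this pair, which is more than the smallest SDs of the pool, so this rank says little about bta-miR-145 at its few counts. The closest were bta-miR-374a with an SD of 0.254, bta-miR-27a-3p, which is in the endothelium list, with 0.300, and bta-miR-7859 with 0.332. The median over the pool was 0.680. With single cows left out, bta-miR-374a was always among the 3 closest, while without control cow 3 the others were bta-miR-11986b and bta-miR-149-5p. bta-miR-27a-3p also lay near bta-miR-143 in level, with 0.799 to 1.35 counts for each count of bta-miR-143 over the 6 cows. bta-miR-374a had 2030, 1390 and 1330 CPM for the control cows and 2633, 2352 and 2470 CPM for the tested cows, and the 2 control cows that were low for bta-miR-143 were also the lowest for it. For bta-miR-145, the closest were bta-miR-149-5p, bta-miR-185 and bta-miR-215 with SDs of 0.868 to 0.888, against about 0.57 from counting alone (0.564 to 0.571), and 0 to 2 of these 3 stayed among the closest when single cows were left out, and 0 of 3 in the pool with a mean of at least 10 counts.

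bta-miR-222 varied most like miRNAs of red blood cells. The closest to bta-miR-222 were bta-miR-144 with an SD of 0.326, bta-miR-451 with 0.384 and bta-miR-486 with 0.588, the 3 miRNAs of the red blood cell list. Counting alone would give SDs of 0.587 to 0.599, so these were no larger than counting error or, for bta-miR-486, about equal to it. The median over the pool was 1.46. The control cows had 25.3, 25.4 and 16.0 counts of bta-miR-144 for each count of bta-miR-222, and the tested cows had 25.1, 31.3 and 24.5, while bta-miR-222 itself spanned 22.1-fold in CPM. For each count of bta-miR-222 there were 701 to 925 counts of bta-miR-451 in 5 cows and 1763 in tested cow 3, which had 2 counts of bta-miR-222. For bta-miR-486 these ratios were 1969 to 2688 in 5 cows and 7214 in tested cow 3. bta-miR-144 and bta-miR-451 are made from a shared transcript in maturing red blood cells. With single cows left out, bta-miR-451 stayed among the 3 closest to bta-miR-222 each time, bta-miR-144 dropped out without tested cow 3, and bta-miR-486 dropped out without control cow 3 and without tested cow 1. The summed red blood cell list had 28434, 16300 and 13468 CPM for the control cows and 59608, 10840 and 8621 CPM for the tested cows. The log2 ratio of bta-miR-222 to this list had an SD of 0.533, the smallest of its SDs to the 7 marker lists, followed by 0.900 to the white blood cell list.

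bta-miR-221 had its smallest SDs to bta-miR-144 (0.953), bta-miR-16b (1.09) and bta-miR-150 (1.15), a lymphocyte miRNA, against a median of 1.84 over the pool. Its partner bta-miR-222, with an SD of 1.07, was closer to it than all but 1 of the 126 miRNAs. Seen from bta-miR-222, 9.52% of the 126 were closer than bta-miR-221 was. Counting alone would give an SD of 0.642 for the pair. The order of the 6 cows by bta-miR-221 was the same as their order by the summed white blood cell list, which had 450, 242 and 212 CPM for the control cows and 432, 236 and 161 CPM for the tested cows. The 4 members of that list were not alike in this. bta-miR-142-5p, with 95.6, 16.4 and 11.6 CPM for the control cows and 65.2, 10.6 and 3.35 CPM for the tested cows, kept the order of bta-miR-221 but for control cow 3 and tested cow 2. bta-miR-150 kept it but for control cow 1 and tested cow 1, at 206 and 326 CPM. bta-miR-155 was highest in control cow 3, at 118 CPM, and bta-miR-146a was at 83.3 CPM in tested cow 3, where bta-miR-221 was lowest, and at 4.08 CPM in tested cow 1. The log2 ratio of bta-miR-221 had an SD of 1.31 to the white and 1.33 to the red blood cell list. Without tested cow 3, the closest miRNAs to bta-miR-221 were others, bta-miR-10a, bta-miR-7859 and bta-miR-122. In the pool with a mean of at least 10 counts they were bta-miR-142-5p, bta-miR-144 and its partner bta-miR-222. The part of red and white blood cells in the values of bta-miR-221 and bta-miR-222 was not tested.

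Across the pairs, the SD was 1.91 for bta-miR-143 and bta-miR-221, 1.58 for bta-miR-143 and bta-miR-222, 2.24 for bta-miR-145 and bta-miR-221 and 1.46 for bta-miR-145 and bta-miR-222, against 1.13 and 1.07 within the pairs. These SDs rest in part on the spread of each member alone, given above, and the difference was not tested. The red blood cell list had an SD of 1.16 to bta-miR-143 and of 1.2 to bta-miR-145. bta-miR-143 was at 506 CPM in tested cow 1, between its values in the other cows, where the red blood cell list was at its highest.

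**Figure D4:**
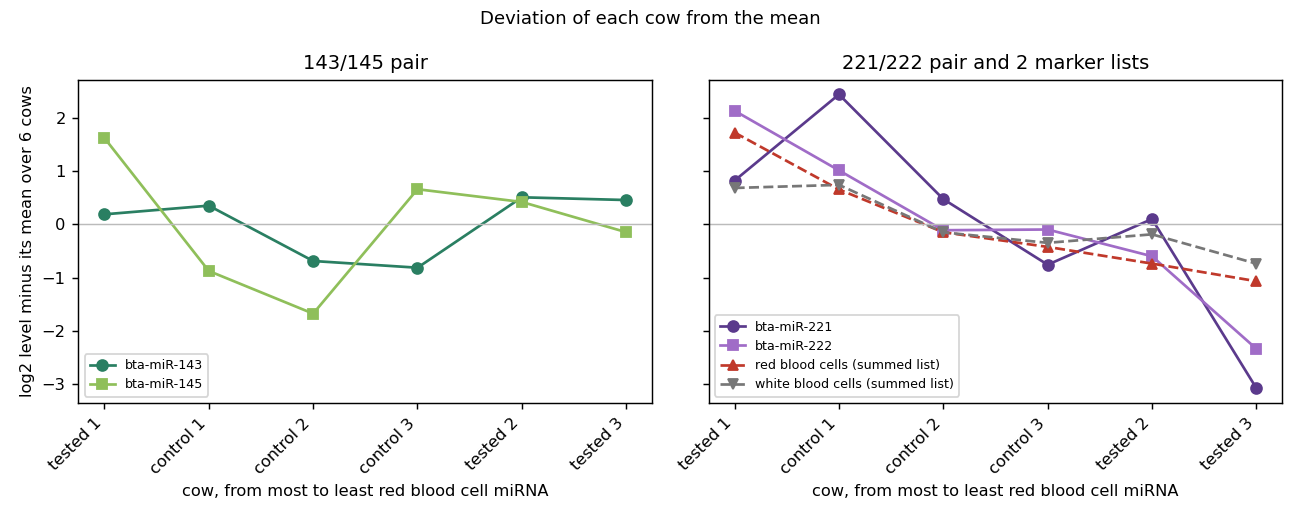
Log2 level minus its own mean over the 6 cows (vertical axis) for bta-miR-143 and bta-miR-145 (left) and for bta-miR-221, bta-miR-222 and the summed red and white blood cell lists (right). Cows are ordered from the most to the least red blood cell miRNA (horizontal axis), and lines only join the points of a miRNA or list. On the right, bta-miR-222 and the red blood cell list are highest in tested cow 1 and lowest in tested cow 3, with bta-miR-222 at 21.2 and 0.958 CPM, and on the left neither miRNA follows this order.

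**Figure D5:**
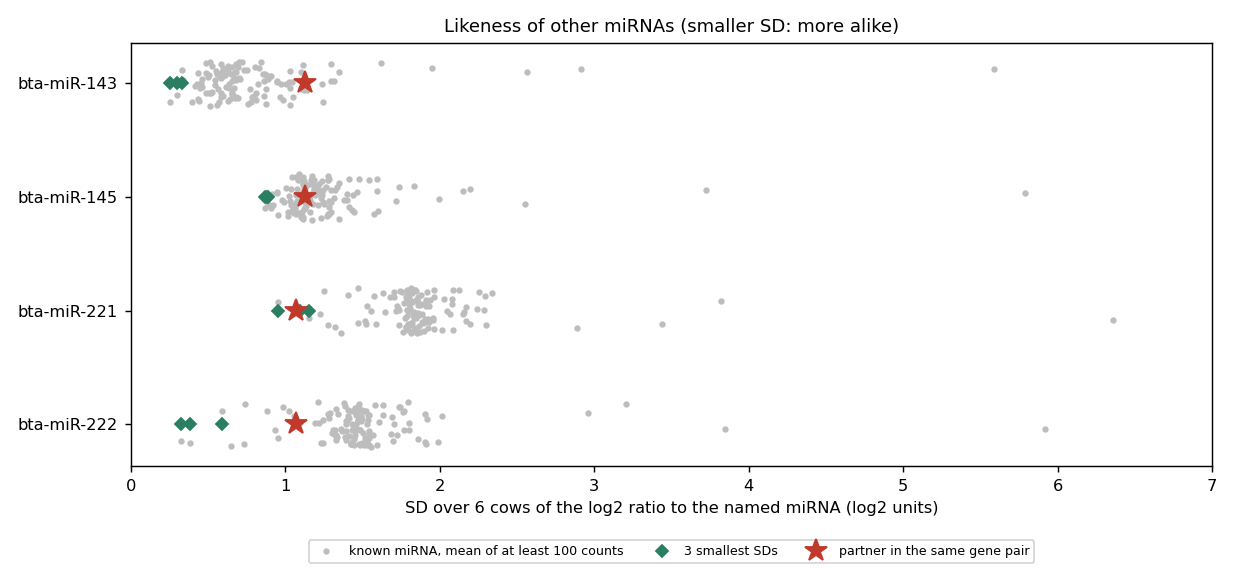
SD over 6 cows of the log2 ratio to each of the 4 miRNAs (horizontal axis, log2 units). Grey points are the known miRNAs with a mean of at least 100 counts, spread vertically for sight only, green diamonds the 3 smallest SDs and red stars the partner of the same pair. The partner lies among the smallest values for bta-miR-221, at 1.07, and among the larger ones for bta-miR-143, at 1.13.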

How the data were processed

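Small RNA libraries of serum EVs from 6 cows were used, each cow a separate animal and 1 library. The authors trimmed reads, aligned them to ARS-UCD1.2 and named known miRNAs from miRBase. The submitters' processing notes name cutadapt 1.14 and Bowtie, and the counting tool is not given in the sources used here. The authors deposited raw counts per mature miRNA, 1277693 to 2176002 per library. The authors also deposited RPM values, scaled to clean reads, which served only as an alternative. The authors' base mean, fold change, test and p-value columns, and their table of called miRNAs, were not used.

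Groups follow the sample titles. Shares were taken of all known miRNA counts. R 4.3.3 with edgeR 4.0.16 (TMM, estimateDisp, glmQLFit, glmQLFTest) was fitted to all miRNAs with at least 10 counts in sum, and p-values were adjusted by Benjamini and Hochberg. Standard errors follow from the fold change and its F statistic. Alternatives were DESeq2 1.42.0, limma 3.58.1 on log2(CPM + 1), other factors and filters, a replicate block, other totals, and each cow left out in turn. Exact permutation tests, two-sided, and plots used Python 3.11.15, SciPy 1.17.1 and Matplotlib 3.10.9. The edgeR, DESeq2 and limma fits at their main settings were tried on simulated counts with large changes and a dispersion below the fitted one. This does not show how they perform at the spread of these data. The other alternatives were not simulated. Named are the 4 members, the 3 miRNAs closest to each and those with a shared seed, hairpin or sequence. The vascular list held 19 endothelial and 14 vessel wall miRNAs. Of it, the highest and lowest fold change, the smallest p, any call and its other arm are named. Hairpin sequences were not used here. The members, the vascular list and the 7 marker lists (red blood cells, white blood cells, platelets, epithelium, liver, striated muscle, smooth muscle) were chosen with earlier results of these data known.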

Additional observations from a re-analysis of the deposited data

How the results depend on the processing

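In every alternative, 0 members passed the threshold, with filterByExpr leaving bta-miR-222 untested. The log2 fold changes of bta-miR-143, bta-miR-145 and bta-miR-221 kept their sign in all alternatives run. That of bta-miR-222 turned to -0.31 with limma, to -0.51 with the replicate block and to -1.55 without tested cow 1, in a range of -1.55 to 0.94 with a cow left out. Its difference in share, 2.19 CPM, turned to -0.0622 RPM with clean reads as the total and ran from -4.18 to 5.94 with a cow left out. With clean reads as the total, the p of the exact permutation test rose from 0.2 to 0.7 for bta-miR-143 (difference of 14.8 RPM). It rose from 0.3 to 0.7 for bta-miR-145 (0.248 RPM) and fell from 0.5 to 0.3 for bta-miR-221 (-6.25 RPM). With a cow left out, the difference in share ran from 161 to 318 CPM for bta-miR-143, from 1.47 to 6.65 for bta-miR-145 and from -78.1 to -0.124 for bta-miR-221. The difference between the groups in the log2 ratio of the pairs ran from 0.88 to 3.01, that of bta-miR-143 over bta-miR-145 from -1.35 to 0.10 and that of bta-miR-221 over bta-miR-222 from -1.47 to -0.41. The mean log2 ratio within a cow ran from 3.08 to 4.20 for bta-miR-143 over bta-miR-221, from 2.45 to 3.00 for bta-miR-221 over bta-miR-222 and from -0.36 to 0.46 for bta-miR-222 over bta-miR-145.

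Of the other vascular miRNAs, 1 was called higher, against 2 with DESeq2, 0 with the replicate block and 0 to 2 with a cow left out. Leaving out control cow 1, control cow 3 or tested cow 1 gave 0 calls, and leaving out tested cow 2 gave 2. The cause was not tested. With miRNAs of at least 10 counts in the pool, 57.1% were closer to bta-miR-143 than bta-miR-145 was, in place of 90.4%. Same-numbered cows of the groups are different animals, and the correlations of their deviations from the group means were -0.05, -0.09 and -0.02 over 397 miRNAs, so the replicate block pairs nothing but numbers. It gave log2 fold changes of 0.71, 1.25 and -1.47 for bta-miR-143, bta-miR-145 and bta-miR-221. Depth limits bta-miR-145 and bta-miR-222 most, with 61 and 67 counts over all cows.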
